A study of Homo sapiens with 6 samples.

Results

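The immediate early and cyclic AMP response genes examined here are a module of 41 genes. Cells are known to switch on many of them, though not all, within a short time of a stimulus. The members were chosen by name, with earlier results of these data known, and every probe whose annotated gene symbol is on the list was read. Of the 41 genes, 39 had a named probe on the array, out of 18833 named genes, and they were read by 61 of the 48701 probes. Expression of AREG and EGR2 was not analysed here. Expression was measured in A549 cells, an established human lung adenocarcinoma line of epithelial character, grown in DMEM with fetal calf serum. The cells were transfected with a control siRNA, an siRNA against Snai1, a zinc finger transcription factor that represses E-cadherin, or an siRNA against ncRNA-a7, a long noncoding RNA. Each of the 3 groups held 2 single-colour Illumina bead arrays, 6 arrays in all, and A549 is the only cell line. The study set each knockdown against control transfected cells, and the difference between both siRNAs was tested here directly.

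Immediate early genes are transcribed without new protein synthesis when growth factors, serum or stress activate kinase cascades, and many of them encode transcription factors. The ERK kinases act on their promoters through serum response factor and its partners, whereas cyclic AMP acts through protein kinase A and the factor CREB, which binds the cyclic AMP response element. Several products of the module close the loop: DUSP phosphatases and Sprouty proteins dampen ERK signalling, PDE4 phosphodiesterases break down cyclic AMP, and ZFP36 degrades the messenger RNAs of other early genes.

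Deposited signals are linear intensities, and array means ran from 715.2 to 913.8, with Snai1 siRNA replicate 2 the lowest. Log2 differences below come from signals corrected with limma's normexp method (offset 50), quantile normalized between arrays and fitted for 3 groups at once. Because the offset is added before the log, differences of dim genes are understated. Calls were made at an adjusted p under 0.05 (Benjamini-Hochberg, over 19730 features), and n was 2 arrays per group throughout. The labels do not say whether the arrays of a group stem from separate cultures, and p-values therefore reflect array-to-array spread that could be technical. Background was not measured on these arrays, so a dim signal does not show that a gene is expressed. In a bulk sample, fewer cells with a transcript and less of it per cell cannot be told apart. The filter on dim probes kept 37 of the 39 members and left out NR4A3 and PER1. Signals of the SNAI1 probe were 127 on both Snai1 siRNA arrays against 143 and 144 with control siRNA, and the TRERNA1 probe, taken as ncRNA-a7, read 130 and 132 with ncRNA-a7 siRNA against 118 and 118. Both lay below the filter, and neither target was called over all probes, so the knockdowns could not be checked. Of 8 A549 epithelial markers, 7 passed the filter, and KRT8, ALDH1A1 and AKR1B10 stood at percentiles 98.9 to 100 of every array, CDH1 at 94.5 to 97 and EPCAM at 81.8 to 92.3. KRT18 and KRT19 were dimmer, at percentiles 65.3 to 73.8, and AKR1C1, at 0.973 to 24.8, lay below the filter. EPCAM, an epithelial adhesion molecule, fell with either siRNA (-1.12 ± 0.16 and -1.64 ± 0.16, limma adjusted p = 0.00124 and 0.000109), while CDH1, the gene of E-cadherin, rose with either (0.78 ± 0.11 and 0.72 ± 0.11, limma adjusted p = 0.00147 and 0.00202). AKR1B10 also rose with either (0.54 ± 0.11 and 0.71 ± 0.11, limma adjusted p = 0.0106 and 0.00216). With ncRNA-a7 siRNA, KRT8 was called higher (0.49) and KRT18 lower (-0.42). Of the 7 tested, 3 were called against control with Snai1 and 5 with ncRNA-a7 siRNA (42.9% and 71.4%, against 9.15% and 9.83% of features). Of 5 fibroblast, 4 leukocyte and 5 endothelial markers, 3, 2 and 3 passed, while PTPRC, CD3E, VWF, CDH5, COL1A2 and PDGFRB did not. Summed signals of the leukocyte markers were 656 to 668 with control, 809 to 999 with Snai1 and 917 to 948 with ncRNA-a7 siRNA. Those of the fibroblast markers were 877 to 1000, 989 to 1170 and 953 to 980, and those of the endothelial markers 789 to 804, 887 to 1040 and 812 to 908. Single markers moved more than these sums: the endothelial marker ESAM rose 2.8-fold with Snai1 and 1.58-fold with ncRNA-a7 siRNA (limma adjusted p = 6.84e-05 and 0.00642), and the leukocyte marker CD14 rose 2.22- and 2.01-fold (limma adjusted p = 0.000271 and 0.000447). Against control, limma also called LUM and COL1A1 higher with Snai1 siRNA (0.53 each) and ITGAM higher with ncRNA-a7 siRNA (0.80). ESAM was dim with control siRNA, at 159 and 173. COL1A1, at 158 to 206, and ITGAM, at 164 to 258, were dim on all arrays. Without single arrays, LUM and COL1A1 lost their calls (limma adjusted p of up to 0.167 and 0.166), as did ESAM for ncRNA-a7 siRNA without replicate 1 of either group (up to 0.0762). The part of these differences in the results was not tested.

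RASD1 and NR4A2 fell with either siRNA, by more than any other member, while the ERK phosphatase gene DUSP5 rose with either. With Snai1 siRNA, limma called 15 of 37 members against control, or 40.5%, where 9.15% of all features were called. Of these, 8 were higher (DUSP5, FOS, ZFP36, SPRY4, DUSP1, FOSL1, EREG and IER5), against 4.89% of features called higher, and 7 were lower (RASD1, NR4A2, SGK1, PDE4D, JUN, KLF4 and MYC), against 4.26% called lower. The median log2 change of the 37 members was -0.02, and that of all features -0.008. With ncRNA-a7 siRNA, 9 of 37 members were called against control, or 24.3%, where 9.83% of features were. Here 4 were higher (DUSP5, KLF2, SPRY4 and FOS; 5.73% of features were called higher) and 5 lower (RASD1, NR4A2, KLF4, MYC and JUND; 4.11% called lower), with a median of -0.12 against -0.012 for all features. Both comparisons share the control arrays. Members were bright: 29 of the 37 lay above the 75th percentile of mean signal over probes. When only features above it were tested, with their own adjustment, 26.3% were called with Snai1 and 28.3% with ncRNA-a7 siRNA. The member shares given here were adjusted over all 19730 features instead, so they are not directly comparable with these. How far brightness accounts for the member shares was not tested. The list was also chosen with earlier results of these data known, so these shares support nothing independently.

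The direct comparison of ncRNA-a7 with Snai1 siRNA called 6 of 37 members, or 16.2%, where 8.1% of features were called. Among features above the 75th percentile, tested alone with their own adjustment over 9958 features, 25.1% were called. That share is not directly comparable with the 16.2%, and the member count of that test is given further below. SGK1 and CREB1 were higher with ncRNA-a7 siRNA, against 4.73% of features called higher. DUSP1, ZFP36, EREG and KLF4 were lower, against 3.37% called lower. The median difference of the members was -0.09, and that of all features -0.005. With arrays scaled to their medians, the members called were 1 higher and 5 lower with Snai1 siRNA, 1 and 4 with ncRNA-a7 siRNA, and 1 and 2 in the direct comparison. Under that scaling 5.39%, 4.66% and 3.54% of all features were called in the 3 comparisons, and 33.7%, 48.9% and 70.6% of those called were higher, against 53.4%, 58.2% and 58.4% in the reported analysis. Leaving out single arrays gave 5 to 14, 5 to 8 and 1 to 6 called members in the 3 comparisons. The lowest counts came without Snai1 siRNA replicate 2 or control siRNA replicate 1 for Snai1 siRNA, and without Snai1 siRNA replicate 2 in the direct comparison. For ncRNA-a7 siRNA, 5 were called without either control or either ncRNA-a7 array.

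**Figure D1:**
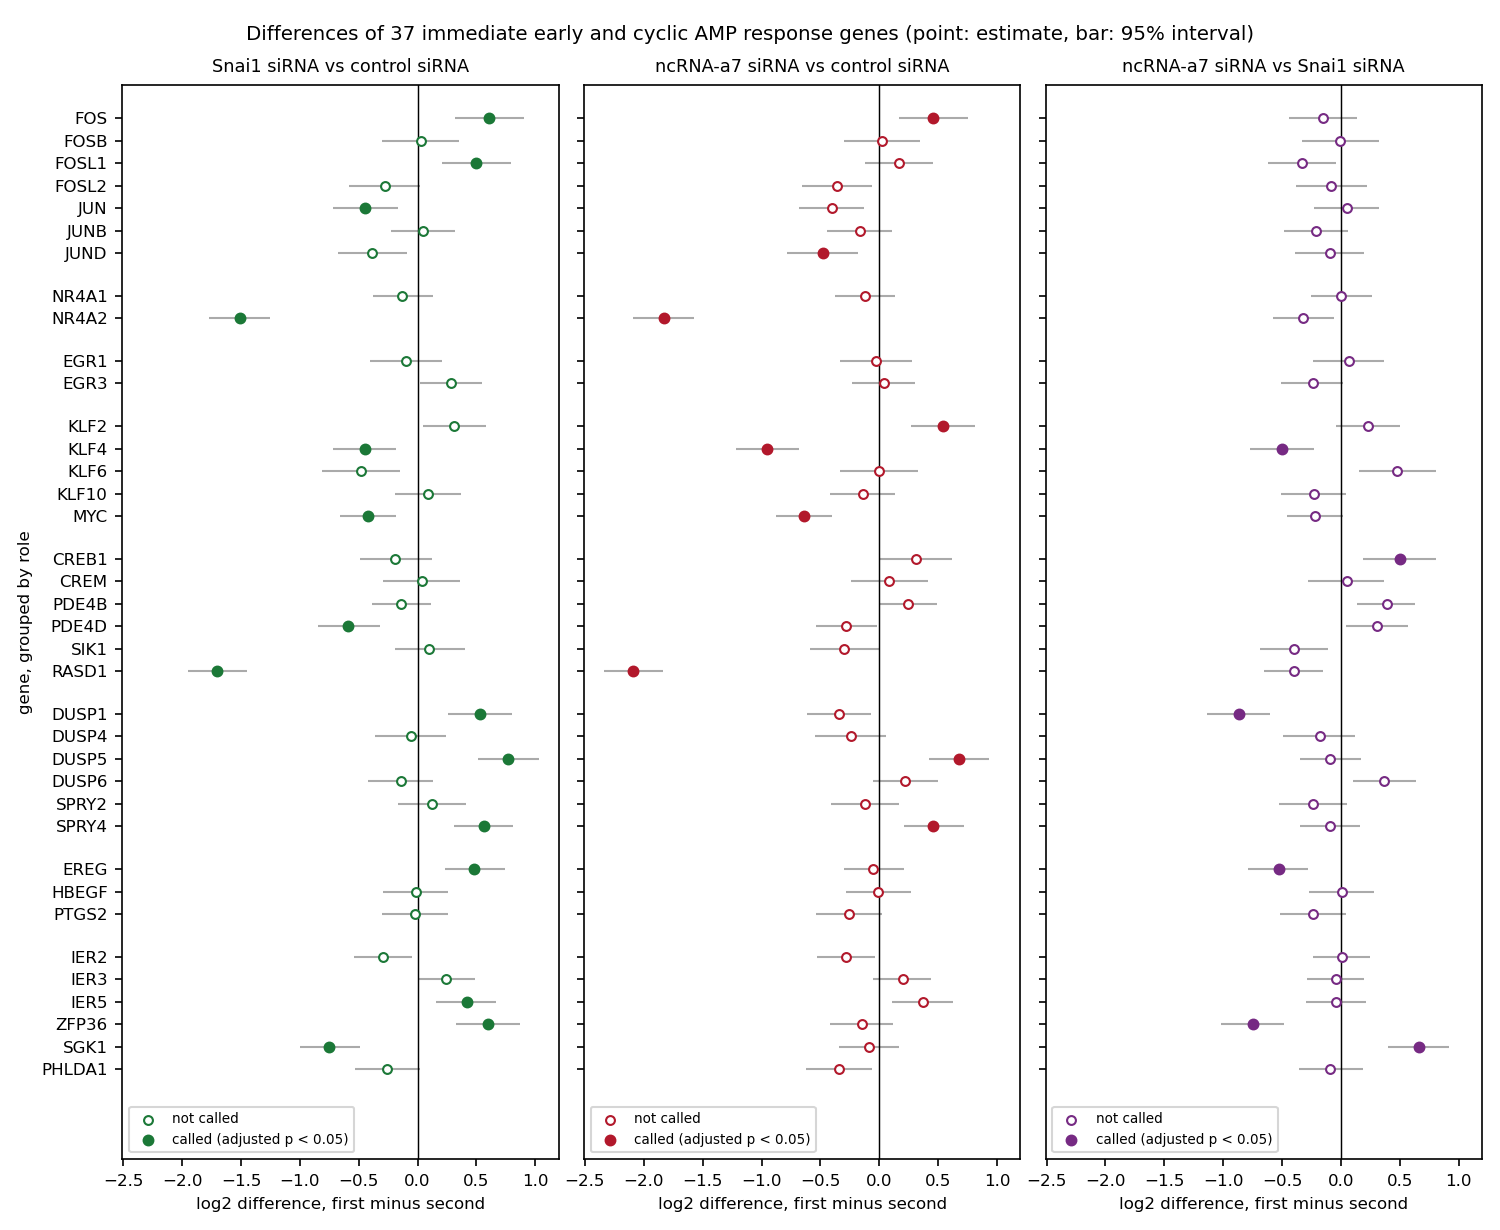
Log2 difference of each of the 37 members that passed the filter, by role, for Snai1 siRNA against control, ncRNA-a7 siRNA against control and ncRNA-a7 against Snai1 siRNA, with 95% confidence intervals from the limma fit; filled points were called. RASD1 and NR4A2 stand far to the left in both comparisons with control, at -1.51 to -2.09, and DUSP1, at -0.87, lies farthest from 0 in the direct comparison.

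Promoter sequence is shown for 4 members that moved in different directions, to show where each matches the full or the short cyclic AMP response element. RefSeq promoter sequence of build GRCh38.p14 was held for 33 of the 41 members, NR4A2 not among them. The 250 bases before each start were searched on both strands. The full palindromic element TGACGTCA was found in 4 of the 33 (12.1%), JUND, CREM, DUSP1 and AREG, and in 2.03% of the promoters of all 27305 genes in the table. The short element TGACG, which also lies within each full one, was found in 21 of 33 (63.6%) and in 24.9% of all promoters. A loose AP-1 pattern, TGANTCA with any base at N, was found in PDE4D alone (3.03%, against 8.06% of all promoters). A CArG box, the serum response factor element, was found in EGR1, EGR2 and PDE4D (9.09%, against 1.44%). Elements farther than 250 bases from a start were not searched for, so a gene without a match here may still hold one. The sequences run 5′ to 3′ in the direction of the gene, and capitals mark TGACG or its reverse complement CGTCA. They are the 250 bases before the start of RASD1 (chr17:17496396-17496645, minus strand), KLF4 (chr9:107489770-107490019, minus strand) and DUSP1 (chr5:172771196-172771445, minus strand), and the last 80 bases before the start of FOS (chr14:75278748-75278827, plus strand).
RASD1: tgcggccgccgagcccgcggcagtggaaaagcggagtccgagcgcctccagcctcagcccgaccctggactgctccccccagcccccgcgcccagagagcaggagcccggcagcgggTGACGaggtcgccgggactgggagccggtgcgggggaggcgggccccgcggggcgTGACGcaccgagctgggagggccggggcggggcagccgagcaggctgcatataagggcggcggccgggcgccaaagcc
KLF4: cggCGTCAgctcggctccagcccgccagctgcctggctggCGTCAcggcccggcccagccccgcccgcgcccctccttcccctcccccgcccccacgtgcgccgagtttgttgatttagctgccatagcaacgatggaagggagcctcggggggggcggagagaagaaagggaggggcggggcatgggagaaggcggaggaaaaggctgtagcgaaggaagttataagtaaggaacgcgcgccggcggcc
DUSP1: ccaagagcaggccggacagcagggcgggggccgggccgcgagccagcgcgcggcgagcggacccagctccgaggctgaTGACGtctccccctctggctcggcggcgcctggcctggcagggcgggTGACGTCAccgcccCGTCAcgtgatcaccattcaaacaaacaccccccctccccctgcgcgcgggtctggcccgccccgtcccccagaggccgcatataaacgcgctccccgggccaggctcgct
FOS: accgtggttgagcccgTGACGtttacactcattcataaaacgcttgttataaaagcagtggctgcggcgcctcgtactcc

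RASD1 held 2 short elements, which begin 133 and 78 bases before the start, and KLF4 held 2 on the opposite strand, at 247 and 210 bases. DUSP1 held the full element, which begins 125 bases before the start, and further short ones at 172 bases and, on the opposite strand, at 111 bases. In the stretch shown, FOS held a short one 64 bases before the start. RASD1 and KLF4 fell with either siRNA and FOS rose with either, while DUSP1 rose with Snai1 siRNA alone among the calls against control. Among members with promoter sequence, TGACG was found in 4 of 6 called higher and 4 of 5 called lower with Snai1 siRNA, and in 10 of 18 not called. A match is a description of these letters and does not show that a factor binds.

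RASD1, grouped here with the CREB family and cyclic AMP feedback genes, had the largest change of any member. Of the 6 tested genes of that group, 2 were called against control with Snai1 siRNA and 1 with ncRNA-a7 siRNA. All were lower, where 4.26% and 4.11% of all features were called lower. RASD1 encodes a Ras-like G protein known to be induced by glucocorticoids and to inhibit adenylyl cyclase signalling. Its signal was 1822 and 2077 with control siRNA, 698 and 498 with Snai1 siRNA, and 498 and 464 with ncRNA-a7 siRNA. Both control arrays lay above all 4 knockdown arrays, with no overlap. RASD1 fell 3.24-fold with Snai1 siRNA (-1.70 ± 0.11 SE in log2, with an adjusted p of 1.7e-05 by limma, n = 2 per group) and 4.27-fold with ncRNA-a7 siRNA (-2.09 ± 0.11, limma adjusted p = 2.39e-06). The difference between both siRNAs, -0.40 ± 0.11, was not called (limma adjusted p = 0.0557, 95% interval -0.65 to -0.15).

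PDE4D, a phosphodiesterase that breaks down cyclic AMP, read 4429 and 4651 with control, 3045 and 2495 with Snai1, and 3613 and 3365 with ncRNA-a7 siRNA. The 3 groups did not overlap, with Snai1 siRNA lowest and control highest. PDE4D fell 1.5-fold with Snai1 siRNA (-0.59 ± 0.12 SE in log2, with an adjusted p of 0.0103 by limma), and its change with ncRNA-a7 siRNA, -0.28 ± 0.12, was not called (limma adjusted p = 0.176). The Snai1 call was lost without Snai1 siRNA replicate 1 or control siRNA replicate 1, with a limma adjusted p of up to 0.122. PDE4B, the related enzyme known as a cyclic AMP feedback gene, was not called, with differences from control of -0.14 with Snai1 and 0.24 with ncRNA-a7 siRNA. Between the siRNAs its signals did not overlap, at 1963 and 1324 with Snai1 and 2196 and 2095 with ncRNA-a7 siRNA, and the difference of 0.39 ± 0.11 was not called (limma adjusted p = 0.0585).

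CREB1, which encodes the factor CREB itself, read 11755 and 12322 with control, 11444 and 7708 with Snai1, and 16865 and 11950 with ncRNA-a7 siRNA. The Snai1 arrays lay below both others, but the ncRNA-a7 arrays were far apart and the lower of them fell between the control arrays. CREB1 was 1.41-fold higher with ncRNA-a7 than with Snai1 siRNA (0.50 ± 0.14 SE in log2, with an adjusted p of 0.0493 by limma), and neither siRNA was called against control. The call was lost without either Snai1 array, either control array or ncRNA-a7 siRNA replicate 1, with a limma adjusted p of up to 0.27. Of 3 further CREB1 probes, 1 gave a like difference of 0.52, 1 gave 0.13 and the dimmest gave -0.48. CREM, whose gene yields CREB-like activators and repressors, and SIK1, a kinase that holds back CREB coactivators, were not called in any comparison. Their differences lay between -0.40 and 0.10, and the SIK1 probe may also read the near-identical copy SIK1B. PER1, a clock gene with a known CREB site, read 133 to 169 on all arrays and was too dim to be tested.

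Of the NR4A orphan nuclear receptors, which cyclic AMP and stress are known to induce, NR4A2 alone was bright. It read 1789 and 1989 with control siRNA, 770 and 538 with Snai1 siRNA, and 529 and 567 with ncRNA-a7 siRNA. As for RASD1, the control arrays lay above all 4 knockdown arrays. NR4A2 fell 2.84-fold with Snai1 siRNA (-1.51 ± 0.12 SE in log2, with an adjusted p of 5.47e-05 by limma) and 3.55-fold with ncRNA-a7 siRNA (-1.83 ± 0.12, limma adjusted p = 6.95e-06). Its second probe gave -1.10 and -1.47. Between the siRNAs the difference of -0.32 ± 0.12 was not called (limma adjusted p = 0.124, 95% interval -0.58 to -0.06). NR4A1 was not called, with differences of -0.13, -0.12 and 0.00. The 3 probes of NR4A3 read 108 to 161 and lay below the filter.

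**Figure D2:**
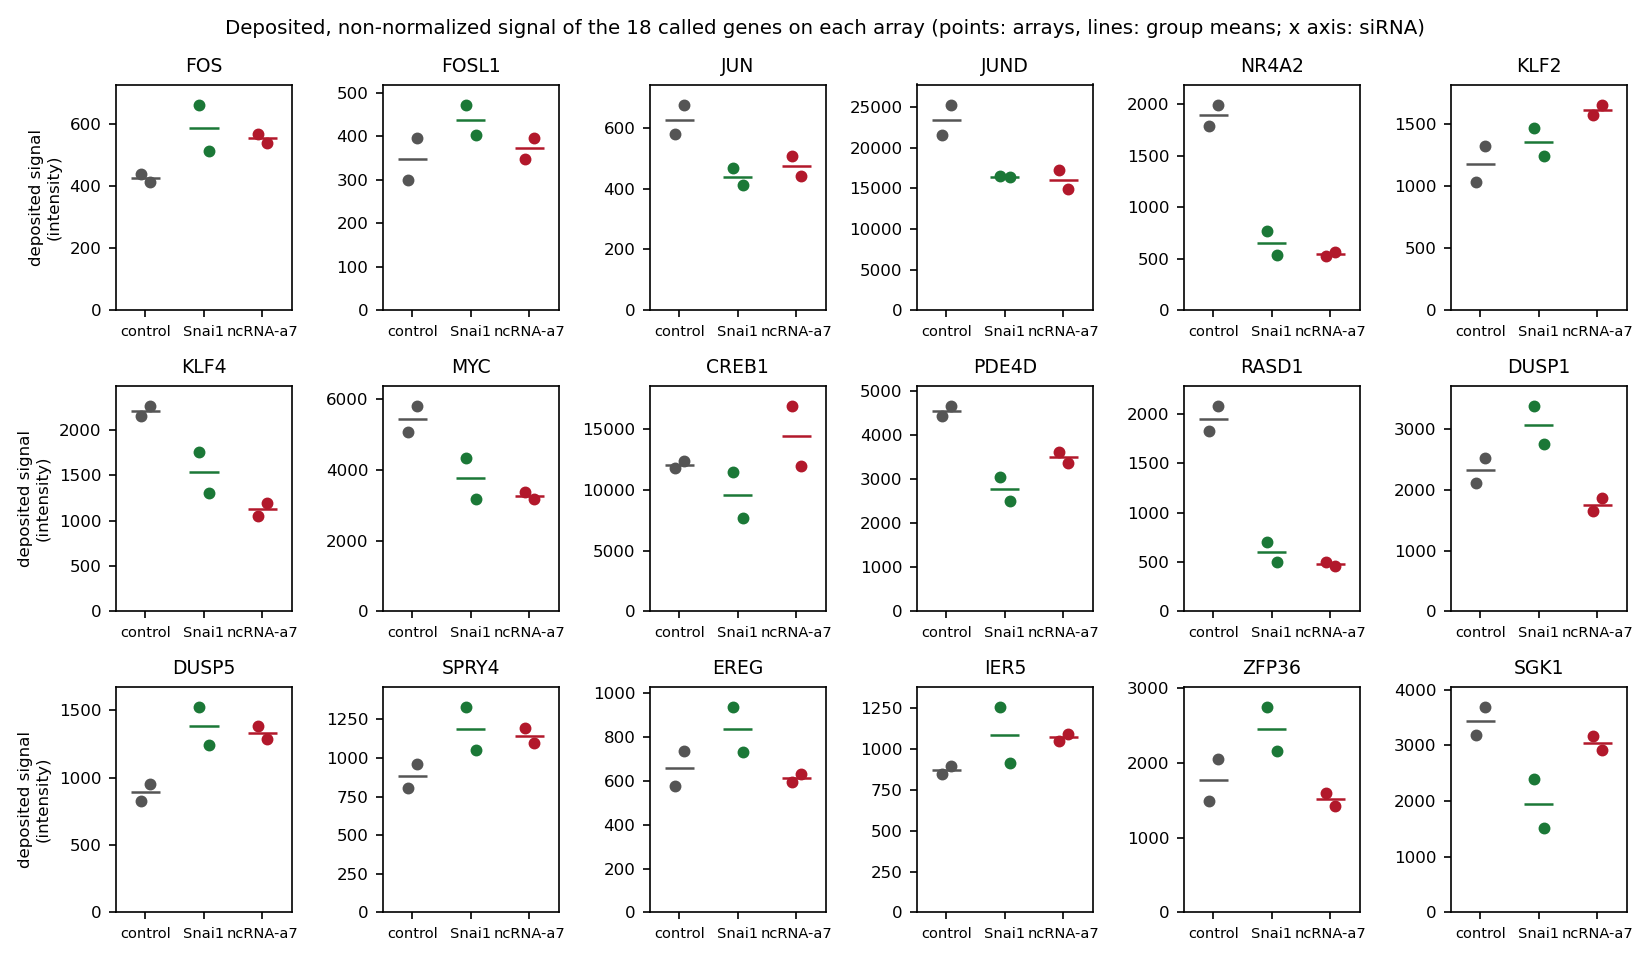
Deposited, non-normalized signal intensity (linear axis from 0) of the 18 members called in at least 1 comparison; points are arrays, 2 per group, and lines are group means. For RASD1 and NR4A2 the control arrays, at 1789 to 2077, stand above all knockdown arrays, at 464 to 770, and for DUSP5 the control arrays, at 829 and 952, stand below them.

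The ERK feedback genes had 3 of 6 members called with Snai1 siRNA and 2 of 6 with ncRNA-a7 siRNA, all of them higher, where 4.89% and 5.73% of all features were called higher. DUSP5, a nuclear phosphatase specific for ERK, read 829 and 952 with control, 1525 and 1245 with Snai1, and 1382 and 1285 with ncRNA-a7 siRNA. Every knockdown array exceeded both controls. DUSP5 rose 1.70-fold with Snai1 siRNA (0.77 ± 0.12 SE in log2, with an adjusted p of 0.00226 by limma) and 1.60-fold with ncRNA-a7 siRNA (0.68 ± 0.12, limma adjusted p = 0.00424). The difference between the siRNAs was -0.09 (95% interval -0.35 to 0.17) and was not called. SPRY4, a Sprouty inhibitor of receptor kinase signalling to ERK, read 803 and 959 with control, 1330 and 1051 with Snai1, and 1192 and 1099 with ncRNA-a7 siRNA, again with no overlap with control. It rose by log2 changes of 0.56 ± 0.12 (limma adjusted p = 0.0105) and 0.46 ± 0.12 (limma adjusted p = 0.0262). Of its 3 further probes, all dimmer, 1 gave 0.41 and 0.14, and the others gave -0.20 to -0.04.

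DUSP1, a phosphatase of p38, JNK and ERK, was the member on which the siRNAs differed most. It read 2115 and 2531 with control, 3378 and 2761 with Snai1, and 1645 and 1859 with ncRNA-a7 siRNA. The Snai1 arrays lay above the controls and the ncRNA-a7 arrays below them. DUSP1 was 1.82-fold lower with ncRNA-a7 than with Snai1 siRNA (-0.87 ± 0.12 SE in log2, with an adjusted p of 0.00224 by limma), a call that held under every one of 18 alternative settings. Against control it rose by 0.53 ± 0.12 with Snai1 siRNA (limma adjusted p = 0.02), and its change of -0.34 ± 0.12 with ncRNA-a7 siRNA was not called (limma adjusted p = 0.115).

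Against control, DUSP1 and SPRY4 were lost for Snai1 siRNA without Snai1 siRNA replicate 2 or either control array, with limma adjusted p-values of up to 0.164 and 0.102. The SPRY4 call for ncRNA-a7 siRNA was lost without either control or either ncRNA-a7 array (adjusted p of up to 0.153). DUSP6, the cytoplasmic ERK phosphatase, read 500 to 789, and SPRY2, another Sprouty, 510 to 709. DUSP4, a nuclear phosphatase, was dim at 154 to 205. None of the 3 was called, with differences from -0.24 to 0.37.

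The AP-1 subunits, which pair as FOS and JUN proteins to form a transcription factor, moved in both directions. FOS, the classic immediate early gene, read 437 and 413 with control, 660 and 511 with Snai1, and 567 and 539 with ncRNA-a7 siRNA, with both controls lowest. It rose by a log2 change of 0.61 ± 0.13 SE (limma adjusted p = 0.0137) and 0.46 ± 0.13 (limma adjusted p = 0.0488). FOSL1, a Fos-related subunit linked to ERK activity, read 299 and 397 with control, 472 and 403 with Snai1, and 348 and 397 with ncRNA-a7 siRNA. It rose with Snai1 siRNA by 0.50 ± 0.13 (limma adjusted p = 0.0368), with the nearest arrays of the groups almost equal in deposited signal. Its change of 0.17 with ncRNA-a7 siRNA was not called.

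JUN and JUND were lower. JUN read 578 and 674 with control, 466 and 412 with Snai1, and 506 and 440 with ncRNA-a7 siRNA, and the controls lay above all other arrays. It fell by 0.45 on the log2 scale with Snai1 siRNA (SE 0.13, limma adjusted p = 0.0458), and its change of -0.40 with ncRNA-a7 siRNA was not called (limma adjusted p = 0.0676). JUND, the Jun subunit often abundant in resting cells, was among the brightest probes of the arrays, at 21602 and 25233 with control, 16467 and 16373 with Snai1, and 17224 and 14919 with ncRNA-a7 siRNA. Its change of -0.48 ± 0.14 with ncRNA-a7 siRNA was called (limma adjusted p = 0.0455) and that of -0.39 ± 0.14 with Snai1 siRNA was not (limma adjusted p = 0.104). Between the siRNAs, no AP-1 subunit was called by limma, and 1 had an unadjusted p under 0.05. FOSB, FOSL2 and JUNB were not called in any comparison, with differences of -0.36 to 0.05. FOSB, at 171 to 196, and FOSL2, at 156 to 211, were dim, and JUNB read 287 to 349.

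These AP-1 calls rested on few arrays. Without single Snai1 or control arrays, FOS, FOSL1 and JUN lost their Snai1 calls, with limma adjusted p-values of up to 0.137, 0.29 and 0.233. FOS kept its call without control siRNA replicate 1. For ncRNA-a7 siRNA, FOS lost its call without any single array (up to 0.324), and JUND without either control or either ncRNA-a7 array (up to 0.234).

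KLF4 and MYC fell with either siRNA. KLF4, a Krüppel-like zinc finger factor of epithelial differentiation, read 2149 and 2263 with control, 1762 and 1303 with Snai1, and 1054 and 1192 with ncRNA-a7 siRNA. The 3 groups did not overlap, and their order was control, Snai1, ncRNA-a7. KLF4 fell by log2 changes of 0.45 with Snai1 siRNA (SE 0.12, limma adjusted p = 0.0416) and of 0.95 with ncRNA-a7 siRNA (SE 0.12, limma adjusted p = 0.000699, 1.93-fold). It was also lower with ncRNA-a7 than with Snai1 siRNA, by -0.50 ± 0.12 (limma adjusted p = 0.0307). A second, dim KLF4 probe gave -0.38, -0.10 and 0.27 in the 3 comparisons.

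MYC, a factor that drives growth and ribosome synthesis, read 5080 and 5804 with control, 4329 and 3189 with Snai1, and 3373 and 3175 with ncRNA-a7 siRNA. All 4 knockdown arrays lay below the controls. It fell by 0.42 with Snai1 siRNA (SE 0.11, limma adjusted p = 0.0337) and by 0.64 with ncRNA-a7 siRNA (SE 0.11, limma adjusted p = 0.00392). A second MYC probe of like brightness gave -0.10 with Snai1 siRNA and -0.56 with ncRNA-a7 siRNA, so the probes disagreed on the change with Snai1 siRNA.

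KLF2, a factor known from vascular endothelium, read 1035 and 1321 with control, 1463 and 1240 with Snai1, and 1572 and 1651 with ncRNA-a7 siRNA. The ncRNA-a7 arrays lay above all others, and it rose with that siRNA by 0.54 ± 0.12 (limma adjusted p = 0.0175). Its change of 0.31 with Snai1 siRNA was not called. KLF6, at 681 to 1496, and KLF10, at 469 to 654, were not called, and KLF6 differed by -0.48 with Snai1 siRNA (limma adjusted p = 0.0702), where the Snai1 arrays read 1282 and 681, and by 0.48 between the siRNAs (limma adjusted p = 0.0734). EGR1 and EGR3, zinc finger factors induced by ERK and serum response factor, were dim at 140 to 270 over the probes that stand for them. Neither was called, and differences ran from -0.24 to 0.28. A second, dimmer EGR3 probe had the opposite sign in both comparisons that hold Snai1 siRNA. It gave -0.36 where the brighter probe gave 0.28 relative to control, and 0.53 where that probe gave -0.24 between the siRNAs. Limma found 1 of them at an unadjusted p under 0.05 with Snai1 siRNA, and none with ncRNA-a7 siRNA or between the siRNAs.

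Calls of this group also varied with single arrays. For Snai1 siRNA, KLF4 and MYC were lost without any single Snai1 or control array, with limma adjusted p-values of up to 0.288 and 0.553. For ncRNA-a7 siRNA, KLF4 and MYC held under all 18 alternative settings. KLF2 was lost without either control or either ncRNA-a7 array (up to 0.153). The KLF4 difference between the siRNAs was lost without either Snai1 array, the array of replicate 1 with control or ncRNA-a7 siRNA (up to 0.164).

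**Figure D3:**
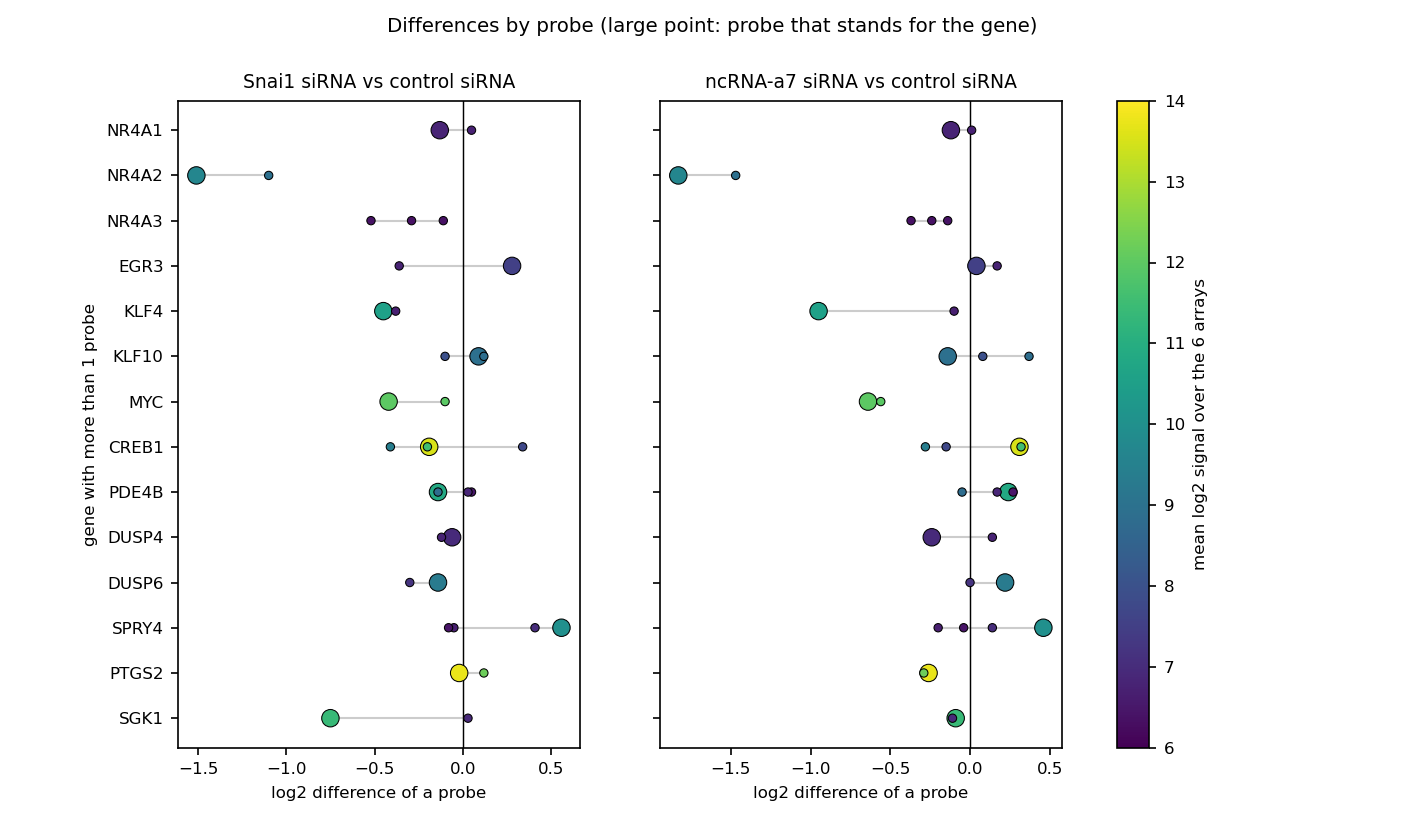
Log2 differences of every probe of the 14 members read by more than 1 probe, for Snai1 (left) and ncRNA-a7 siRNA (right) against control; colour gives the mean log2 signal, and the large point is the probe that stands for the gene (NR4A3 has none, since its probes lay below the filter). Both NR4A2 probes lie between -1.83 and -1.10, whereas the MYC probes gave -0.42 and -0.10 with Snai1 siRNA and the dim SGK1 probe gave 0.03 where the bright one gave -0.75.

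Among the remaining effectors, SGK1 separated the siRNAs. SGK1, a kinase induced by serum and glucocorticoids, read 3182 and 3687 with control, 2392 and 1507 with Snai1, and 3162 and 2910 with ncRNA-a7 siRNA. The Snai1 arrays alone lay far below the others. It fell 1.68-fold with Snai1 siRNA (-0.75 ± 0.12 SE in log2, with an adjusted p of 0.00262 by limma), and with ncRNA-a7 siRNA its change of -0.09 (95% interval -0.34 to 0.17) was not called. The direct difference was 0.66 ± 0.12, higher with ncRNA-a7 siRNA (limma adjusted p = 0.00684). That call was lost without Snai1 siRNA replicate 2 (limma adjusted p = 0.085). When a gene's probes were averaged, SGK1 was called in neither, since its second probe was dim and differed little.

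ZFP36, the tristetraprolin protein that destabilises AU-rich messenger RNAs, showed the opposite order. It read 1490 and 2048 with control, 2749 and 2158 with Snai1, and 1597 and 1428 with ncRNA-a7 siRNA, so the Snai1 arrays were highest. ZFP36 rose with Snai1 siRNA by 0.60 ± 0.12 (limma adjusted p = 0.0107), was not called with ncRNA-a7 siRNA (-0.15), and was 1.68-fold lower with ncRNA-a7 than with Snai1 siRNA (-0.75 ± 0.12, limma adjusted p = 0.00459). Without Snai1 siRNA replicate 2 the direct difference had a limma adjusted p of 0.056. The Snai1 call was lost without that array or control siRNA replicate 1 (up to 0.138).

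EREG, which encodes the EGF receptor ligand epiregulin, read 577 and 735 with control, 936 and 733 with Snai1, and 595 and 629 with ncRNA-a7 siRNA. Deposited signals of control and Snai1 siRNA overlapped by 1 pair of arrays, and after normalization they did not. EREG rose with Snai1 siRNA by 0.48 ± 0.12 (limma adjusted p = 0.0227) and was lower with ncRNA-a7 than with Snai1 siRNA by -0.53 ± 0.12 (limma adjusted p = 0.0182). The Snai1 call was lost without any single Snai1 or control array (up to 0.187), and the direct one without either Snai1 array or ncRNA-a7 siRNA replicate 1 (up to 0.137). HBEGF, another ligand of the receptor, read 247 to 296. PTGS2, the inducible cyclooxygenase of prostaglandin synthesis, was far brighter on the probe that stands for it, at 10808 to 17286. Neither was called, with differences of -0.26 to 0.01. With ncRNA-a7 siRNA against control, limma found none of the 3 genes at an unadjusted p under 0.05. A second PTGS2 probe, at 3800 to 5961, gave 0.12, -0.29 and -0.41 in the 3 comparisons.

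IER5, an early response gene linked to heat shock factor regulation, read 849 and 894 with control, 1258 and 915 with Snai1, and 1051 and 1092 with ncRNA-a7 siRNA, with both controls lowest. It rose with Snai1 siRNA by 0.42 ± 0.12 (limma adjusted p = 0.0484), and its change of 0.37 with ncRNA-a7 siRNA was not called (limma adjusted p = 0.0712). The Snai1 call was lost when any single array was left out (up to 0.267). IER2 (196 to 269), IER3 (3087 to 4222) and PHLDA1 (4138 to 6740), early response genes of proliferation and survival, were not called, with differences of -0.34 to 0.24. With ncRNA-a7 siRNA, limma called none of the 6 genes of this group against control, and 3 had an unadjusted p under 0.05.

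**Figure D4:**
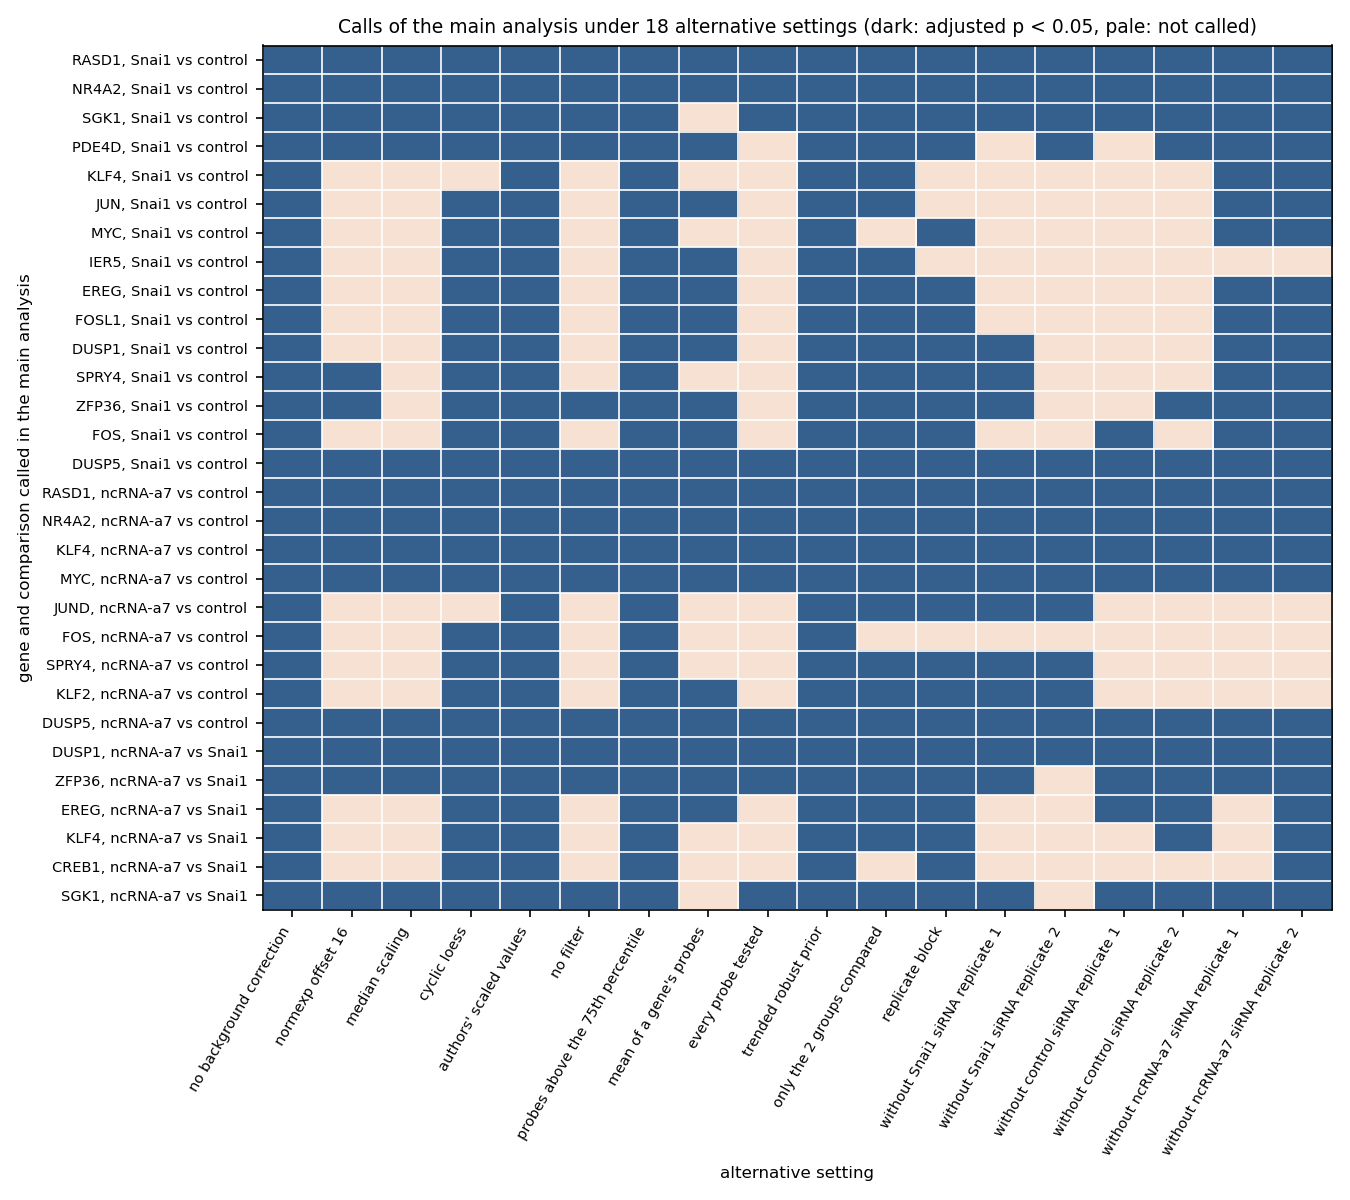
Each member and comparison called in the main analysis (vertical axis) against 18 alternative settings (horizontal axis); dark cells were called at an adjusted p under 0.05 and pale cells were not. RASD1, NR4A2 and DUSP5 are dark throughout for both siRNAs, as are KLF4 and MYC for ncRNA-a7 siRNA and DUSP1 in the direct comparison.

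Other genes of the same pathways were read from lists of related genes. Of 28 tested genes of cyclic AMP synthesis and protein kinase A, 1 was higher and 1 lower against control with each siRNA, or 7.14% called, below the 9.15% and 9.83% of all features. AKAP1, a protein kinase A anchor, rose with Snai1 siRNA (0.49 ± 0.13, limma adjusted p = 0.0318), and the coactivator EP300 fell (-0.64 ± 0.18, limma adjusted p = 0.0446). With ncRNA-a7 siRNA, the adenylyl cyclase ADCY1 rose (0.71 ± 0.12, limma adjusted p = 0.003) and the CREB coactivator CREBBP fell (-0.46 ± 0.12, limma adjusted p = 0.0315). AKAP1 was lower with ncRNA-a7 than with Snai1 siRNA (-0.47 ± 0.13, limma adjusted p = 0.0424), the only call of this list between the siRNAs (3.57%, against 8.1% of features). Of these, ADCY1 lost its call under 1 alternative setting and the others under 8 to 12 of 18.

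Of 18 tested genes of the EGF receptor, RAS and ERK cascade, 2 were higher against control with each siRNA and none lower, and 4 and 5 had an unadjusted limma p under 0.05 in either direction. The 11.1% called lay near the 9.15% and 9.83% of all features. ERBB3, a receptor of the EGF receptor family, read 328 and 432 with control, 767 and 645 with Snai1, and 621 and 518 with ncRNA-a7 siRNA. It rose by 1.12 ± 0.14 (limma adjusted p = 0.000534) and 0.71 ± 0.14 (limma adjusted p = 0.00756). EGFR rose with Snai1 siRNA (0.74 ± 0.12, limma adjusted p = 0.00254) and was lower with ncRNA-a7 than with Snai1 siRNA (-0.72 ± 0.12, limma adjusted p = 0.00411). ERBB2 rose with ncRNA-a7 siRNA (0.53 ± 0.12, limma adjusted p = 0.0142). Between the siRNAs, 3 genes of the list were called (16.7%, against 8.1% of features), all lower with ncRNA-a7 siRNA: EGFR, the scaffold KSR1 (-0.57) and the adaptor GRB2 (-0.46).

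Serum response factor and related genes had 11 members tested. SRF itself read 1258 and 1329 with control, 1291 and 1017 with Snai1, and 732 and 695 with ncRNA-a7 siRNA, and the ncRNA-a7 arrays lay below all others. It fell with ncRNA-a7 siRNA (-0.86 ± 0.12, limma adjusted p = 0.00105) and was lower than with Snai1 siRNA (-0.78 ± 0.12, limma adjusted p = 0.00307), the only call of the list in either comparison (9.09%, against 9.83% and 8.1% of features). With Snai1 siRNA, limma called none against control, and 4 had an unadjusted p under 0.05.

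Of 38 further immediate early and feedback genes tested, 4 were higher and 4 lower with Snai1 siRNA, 2 and 8 with ncRNA-a7 siRNA, and 2 and 5 in the direct comparison. These were 21.1%, 26.3% and 18.4% of the list. Of all features, 4.89% were called higher and 4.26% lower with Snai1 siRNA, 5.73% and 4.11% with ncRNA-a7 siRNA, and 4.73% and 3.37% in the direct comparison. ATF3, a stress-induced factor of the CREB family, read 487 and 712 with control, 337 and 296 with Snai1, and 320 and 333 with ncRNA-a7 siRNA. It fell by 0.92 with Snai1 siRNA (SE 0.13, limma adjusted p = 0.00154) and by 0.91 with ncRNA-a7 siRNA (SE 0.13, limma adjusted p = 0.00137). GADD45B, a stress-induced regulator of MAP kinases, fell with Snai1 siRNA (-0.90 ± 0.12, limma adjusted p = 0.000833) and with ncRNA-a7 siRNA (-0.58 ± 0.12, limma adjusted p = 0.00953). Its difference of 0.32 between the siRNAs was not called (limma adjusted p = 0.125). SPRED1, a Sprouty-related inhibitor of RAS signalling, read 1388 and 1543 with control, 3276 and 1974 with Snai1, and 3431 and 3027 with ncRNA-a7 siRNA. It rose by 0.94 ± 0.13 (limma adjusted p = 0.0011) and 1.25 ± 0.13 (limma adjusted p = 0.000155).

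CCN2, the matricellular growth factor CTGF, rose with ncRNA-a7 siRNA (0.86 ± 0.12, limma adjusted p = 0.0013) and was higher than with Snai1 siRNA (0.96 ± 0.12, limma adjusted p = 0.00124). NFIL3, a basic leucine zipper repressor, and F3, tissue factor, were lower with ncRNA-a7 than with Snai1 siRNA (-0.63 and -0.65). Against control, NFIL3 was called lower with ncRNA-a7 siRNA (-0.66, limma adjusted p = 0.00542) and differed by -0.03 with Snai1 siRNA. F3 was instead called higher with Snai1 siRNA (0.77, limma adjusted p = 0.00326) and differed by 0.12 with ncRNA-a7 siRNA. Of 8 tested p38 and JNK pathway kinases, 1 was called against control with each siRNA (12.5%, near the 9.15% and 9.83% of features) and 3 between the siRNAs (37.5%, against 8.1%). MAPKAPK3, a p38 target, fell with Snai1 siRNA (-0.53 ± 0.11, limma adjusted p = 0.0124). MAPK8, the kinase JNK1, read 472 and 563 with control, 617 and 440 with Snai1, and 294 and 301 with ncRNA-a7 siRNA. It fell with ncRNA-a7 siRNA (-0.87 ± 0.11, limma adjusted p = 0.000698) and was lower than with Snai1 siRNA (-0.99 ± 0.11, limma adjusted p = 0.000574). MAPKAPK2 was lower (-0.52) and MAPKAPK3 higher (0.51) with ncRNA-a7 than with Snai1 siRNA. Among these related genes, the calls of SPRED1, ATF3, CCN2, SRF and MAPK8 given here held under all 18 alternative settings. Those of GADD45B, ERBB3 and EGFR for Snai1 siRNA held as well. The calls against control of GADD45B and NFIL3 for ncRNA-a7 siRNA and of F3 for Snai1 siRNA were not followed through them. Each of the others was lost under 1 to 12.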

How the data were processed

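Per the labels, total RNA of A549 cells was extracted with TRIzol and labelled with biotin, in 3 groups of 2 arrays. The authors deposited a table of linear, non-normalized signal intensities, with 1 value for each probe on each array, and a second table in which each array is multiplied by 1 constant so that every mean is 715.2. The scanner software was not given in the labels or file headers. Probes were named through the platform annotation: 28044 had 1 symbol, 13 several and 20644 none.

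From the deposited intensities, log2 values were made with limma 3.58.1 in R 4.3.3 (normexp with offset 50, quantile normalization). Probes with a mean above the median were kept (24350), and each gene took its brightest probe, which gave 19730 features. All 6 arrays entered 1 fit (lmFit and eBayes; 3 residual and 8.85 prior degrees of freedom; median SE 0.13). Adjusted p-values are Benjamini-Hochberg over all features. The number of arrays limits the precision.

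Members called in any comparison are named with statistics, others by range; from each further list, up to 3 called genes per comparison with the smallest p are named. Members and lists were chosen with earlier results of these data known, and so support nothing independently. The promoter search and further list signals are descriptions. The procedure was tested on simulated data under 2 noise models; how many known changes it recovered depended strongly on the noise assumed, and the more favourable noise model was added after the other had missed the recovery aimed at, so the test is no measure of power. The alternatives covered 18 settings of background, scaling, filter, probe choice, variance prior, samples and replicate block.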

Additional observations from a re-analysis of the deposited data

How the results depend on the processing

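No called member changed direction under any of the 18 alternatives. Calls kept under all of them were RASD1, NR4A2 and DUSP5 for Snai1 siRNA, RASD1, NR4A2, KLF4, MYC and DUSP5 for ncRNA-a7 siRNA, and DUSP1 between the siRNAs; 12 of 15, 4 of 9 and 5 of 6 calls were lost under at least 1. In the order Snai1 against control, ncRNA-a7 against control and ncRNA-a7 against Snai1 siRNA, 15, 9 and 6 members were called. Of all features, 9.15%, 9.83% and 8.1% were. An offset of 16 gave 7, 5 and 3 members (4.95%, 5.17% and 2.86% of features). Median scaling gave 6, 5 and 3 (5.39%, 4.66% and 3.54%). No filter gave 6, 5 and 3 (2.07%, 2.08% and 1.26%), and every probe tested 4, 5 and 3 (1.94%, 1.95% and 1.19%). In the direct comparison, 11 members were called without background correction (12.6% of features). Of the 29 members above the 75th percentile, 12 were called when probes above it were tested alone (25.1% of those features). The mean of a gene's probes gave 3 (6.93%) and a trended robust prior 11 (13.1%). Leaving out single arrays gave 5 to 14, 5 to 8 and 1 to 6; a lone array was then assumed to vary like the other groups. Over all settings, features called ran from 451 to 2719 (1805 in the reported analysis), 547 to 2943 (1940) and 351 to 2580 (1598).

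Of the 18 members called in at least 1 comparison, 3 changed the sign of an uncalled difference, each when a single array was left out; the members called in none were not followed through the alternatives. JUN between the siRNAs ran from -0.06 (without ncRNA-a7 siRNA replicate 1; -0.05 without Snai1 siRNA replicate 1) to 0.15. JUND between them ran from -0.28 to 0.08, the latter without Snai1 siRNA replicate 2. EREG with ncRNA-a7 siRNA ran from -0.10 to 0.01, the latter without either control siRNA replicate 2 or replicate 1 of its own group. The filter settings change how many features are tested, and the left-out arrays how many samples; other causes were not tested.

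With the replicate number as a block, 12, 8 and 6 members were called, and 8.4%, 8.72% and 7.18% of all features. Deviations of same-numbered arrays correlated at -0.07 to 0.01, so the numbers were not taken to pair the arrays. Dim probes, such as those of NR4A3, PER1 and the targeted genes, set the limit of what these arrays can show, since background was not measured.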
